A study of Rattus norvegicus with 18 samples.

Results

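The colon of rats 14 days after an enema of trinitrobenzene sulfonic acid (TNBS) was compared with the colon of healthy rats, to find which transcripts stayed away from control levels as the colitis receded. All 3 arrays titled TNBS day 14 and all 6 arrays titled healthy control were used, 9 of the 18 arrays in the series, and each array is 1 rat. The day 14 rats had received 10 mg TNBS in 50% ethanol in a single enema on day 0, and the control rats a saline enema. Rats killed on days 2, 5 and 7 after the same enema, 3 per day, served as a second point of comparison. RNA came from homogenized full-thickness colon, so that mucosa, submucosa, both muscle layers, nerves and vessels were read together on an Affymetrix array of the rat genome. The labels give no strain, sex or age and no sampling day for the controls, and the series has no rats given ethanol without TNBS, so that effects of the hapten and of the ethanol cannot be told apart. The 3 rats of each TNBS day had been chosen on inflammatory markers, among them myeloperoxidase activity, body weight loss and the weight of the colon per length. Levels of neutrophil transcripts are thus not independent of how the rats were chosen.

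TNBS binds to proteins of the colon once ethanol has opened the mucosal barrier, and T cells then respond to the altered proteins. The acute phase brings neutrophils and monocytes and destroys epithelium, and healing replaces the damaged wall with new epithelium, contracted scar and rebuilt muscle. In rats the ulcers of a single enema close over weeks, and the muscle layer and the enteric nerves are known to stay altered after the mucosa has closed. Lymphoid follicles in the wall of the rat colon lie in patches, so that a piece of colon may or may not contain one.

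The array values, read as log2 signals, did not have the same distribution in the 2 groups. Array medians were 5.027 to 5.049 on day 14 and 4.268 to 4.301 in control, a shift of 0.75, while at the bright end of the arrays the shift was 0.33. All 18 arrays were therefore set to 1 distribution by quantile normalization, and every level below is a quantile-normalized log2 signal and every difference is day 14 minus control on that scale, with its standard error (SE), unless another is named. The median difference over 14217 genes was -0.02 on that scale, 0.62 as deposited and -0.13 with each array centred on its median, and a change is read against these values. The word rose or fell means an adjusted p under 0.05 in limma, adjusted by the Benjamini-Hochberg method over 31042 probe sets, on the quantile-normalized scale. Where a gene that fell has a deposited difference above 0, that value is given beside it.

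Per the labels, the TNBS samples were extracted with Trizol while the entry for the controls names only a technical manual. The series' design text describes Trizol and affinity columns without naming a group, so that a difference in extraction is not settled, and if there was one, it cannot be told apart from treatment or from the shift of the arrays. Probe sets at both ends of 2 transcripts also differed. The 3 prime minus 5 prime difference of Gapdh was 0.57 ± 0.13 on day 14 and 0.03 ± 0.13 in control (SD, n = 3 and 6), and that of beta-actin 1.13 ± 0.17 on day 14 and 2.02 ± 0.13 in control. Each differed with an exact two-sided permutation p of 0.0238, the smallest these group sizes allow. Their part in the results was not tested. Between arrays the correlation was 0.987 to 0.988 within day 14 and 0.981 to 0.992 within control. On the first principal component, 45.4% of the variance, the day 14 arrays lay at -17.9 to -5.3, the control arrays at -52.3 to -38.6 and the arrays of the other TNBS days at -14.9 to 69.5. Nothing in the labels says how the rats were housed or grouped, so that p-values measure the spread between these arrays.

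Day 14 colon differed from control in 910 genes that rose (6.40% of the genes tested) and 905 that fell (6.37%). Over all probe sets, 1741 rose (5.61%) and 1891 fell (6.09%), so that 47.9% of the calls were higher, against 99.8% on the deposited scale and 20.6% with median centring. On all 3 scales at once 751 genes rose (5.28%) and 25 fell (0.176%), and 729 of the 905 genes that fell have a deposited difference above 0. Most differences were small. Only 122 genes rose and 43 fell by at least 1 on the log2 scale. No label pairs the rats. With the replicate number as a block 565 genes rose (3.97%) and 513 fell (3.61%), 511 and 456 of them among those above. Control replicates 4, 5 and 6 have no day 14 array of their number, so that they do not enter the block difference. The block fit thus sets day 14 against control replicates 1, 2 and 3. For a call lost in it, the block and the smaller number of controls cannot be told apart. All 3 day 14 arrays lay above all 6 control arrays in 1380 genes (9.71%) and below them in 1451 (10.2%). Without each array in turn 373 of the rises and 314 of the falls held in all 9 fits. Against day 7, in a contrast of TNBS arrays whose spread was estimated over all 18 arrays, 244 genes were higher on day 14 (1.72%) and 614 lower (4.32%), from 365 (1.18%) and 921 (2.97%) probe sets. Day 7 itself had 2083 genes above control (14.7%) and 2661 below (18.7%). Every count of called list members below is to be read beside the shares over all genes, 6.40% that rose and 6.37% that fell. The plot of list shares sets each gene list beside them.

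**Figure D1:**
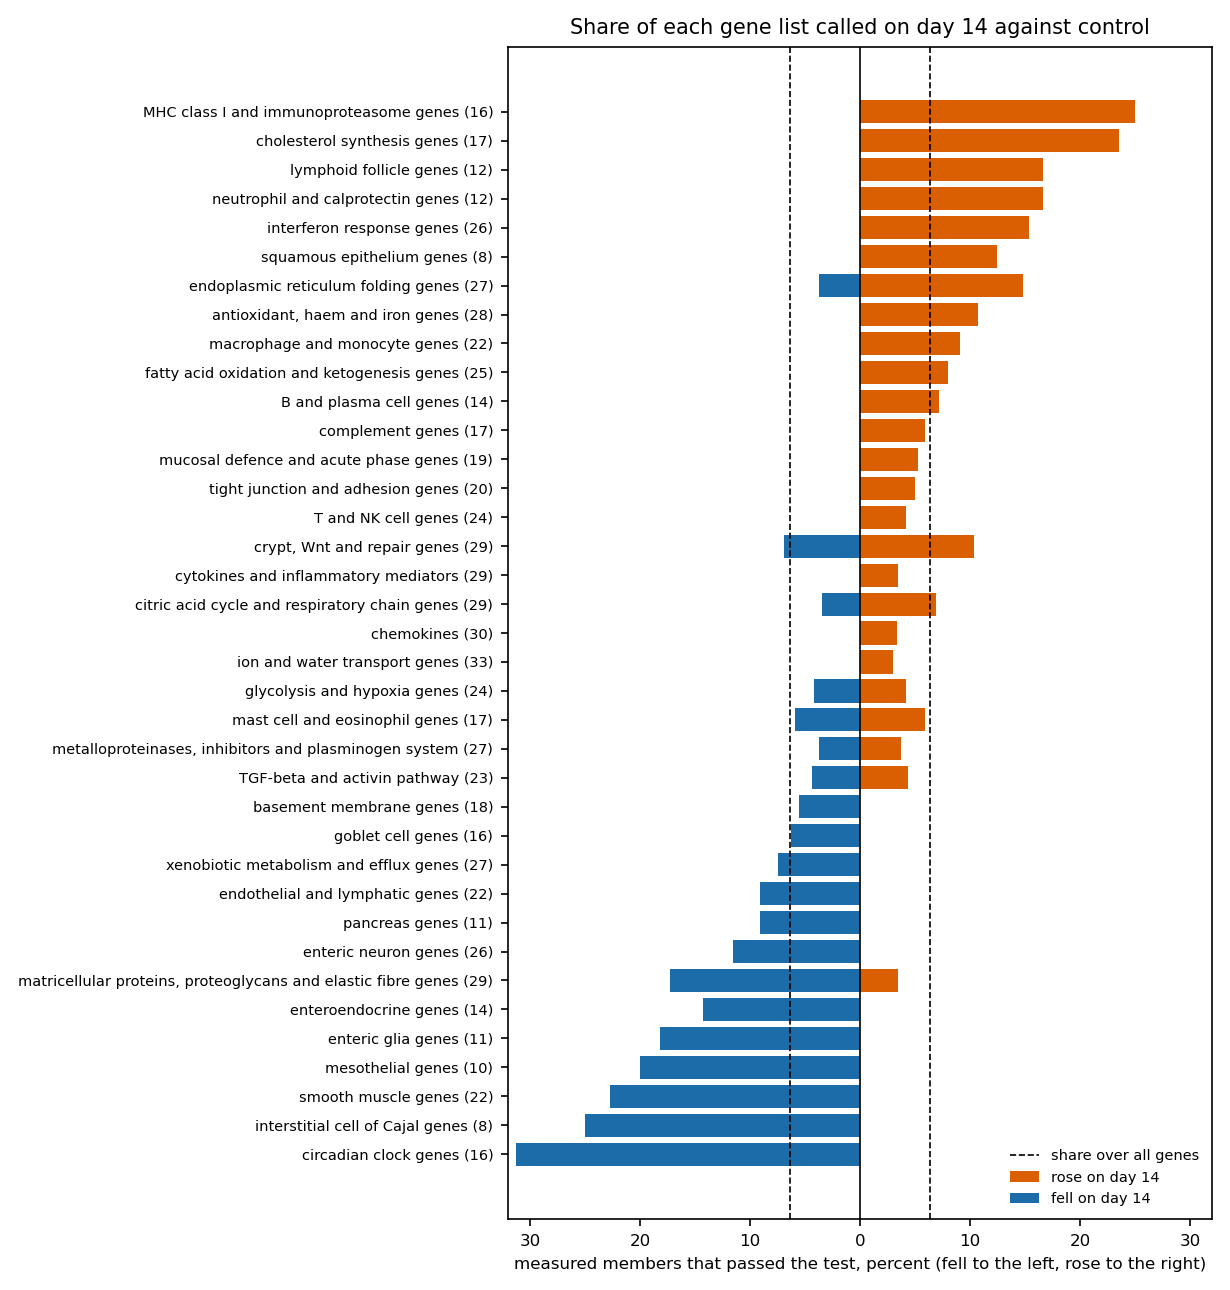
Percent of the measured members of each gene list that rose (orange, to the right) or fell (blue, to the left) on day 14 against control in limma, with the number measured in brackets; lists with no call are left out. Dashed lines mark the shares over all genes, 6.40% that rose and 6.37% that fell, and the bars that stand furthest from them rest on 2 to 5 genes each.

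A few neutrophil and monocyte genes were higher on day 14 than in control, with smaller differences than on day 7. S100a9, 1 of the 2 chains of calprotectin, an antimicrobial protein of neutrophils, read 7.59, 9.0 and 7.26 in the day 14 rats, and its lowest, median and highest control values were 4.62, 5.25 and 5.61. All 3 day 14 arrays lay above all 6 control arrays. The difference was 2.78 ± 0.52 (adjusted p = 0.00262), a 6.87-fold higher level, where days 2, 5 and 7 against the same controls gave 6.26, 7.37 and 7.59. S100a8, the partner chain, read 5.43, 6.99 and 5.18 on day 14, with control values of 3.57, 3.71 and 3.92. Again no array overlapped, and the second day 14 rat stood highest for both chains. S100a8 rose by 2.15 ± 0.61 (adjusted p = 0.0328). S100a8 was not called with the replicate block (adjusted p = 0.106) or without day 14 replicate 1 or 2 or control replicate 1, 2, 3 or 4 (adjusted p 0.0501 to 0.197). Of the 12 neutrophil genes measured, these were the 2 that rose (6.40% of all genes rose), and the list's median difference was 0.37. On day 7 the median was 2.85, and 9 members were lower on day 14 than on day 7, beside 4.32% of all genes.

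In the macrophage list 2 of 22 genes rose (6.40% of all genes rose), Tyrobp and C1qa, and with the replicate block 0 did. Tyrobp, the signalling adaptor of activating receptors on myeloid cells, read 6.56, 6.92 and 6.16 on day 14, with lowest, median and highest control values of 4.97, 5.21 and 5.5. C1qa, a chain of the first complement component made by tissue macrophages, read 8.3, 9.1 and 8.27 on day 14, with control values of 7.63, 7.9 and 8.02. Both genes separated the groups without overlap, and the second day 14 rat was again the highest. Tyrobp rose by 1.33 ± 0.38 (adjusted p = 0.0349) and C1qa by 0.71 ± 0.21 (adjusted p = 0.0401). Tyrobp was not called with the replicate block (adjusted p = 0.159) or without day 14 replicate 1, 2 or 3 or control replicate 3, 4, 5 or 6 (adjusted p 0.0541 to 0.162). C1qa was not called with the replicate block (adjusted p = 0.171) or without day 14 replicate 2 or control replicate 3, 4, 5 or 6 (adjusted p 0.0569 to 0.263). Cd68, a lysosomal protein of macrophages, differed by 1.0 ± 0.38 without passing the test (adjusted p = 0.105), and Gpnmb, a glycoprotein of lipid-laden macrophages, by 1.01 ± 0.37 (adjusted p = 0.0928). Gpnmb was called without day 14 replicate 3 (adjusted p = 0.0326).

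Of the 910 genes that rose, 23 were lower on day 14 than on day 7, beside 4.32% of all genes. The members named here beyond the neutrophil and macrophage lists were chosen after their values were seen. Myo1f, an unconventional myosin of neutrophils, read 4.74, 5.02 and 4.95 on day 14, with control values of 3.74, 3.85 and 4.03. The groups did not overlap, and the rise of 1.04 ± 0.22 (adjusted p = 0.00617) held without each array and with the replicate block. Renbp, a renin-binding protein that acts as an epimerase of amino sugars, rose by 0.91 ± 0.12 (adjusted p = 0.000149), and Myd88, the adaptor of most Toll-like receptors and of the interleukin-1 receptor, by 0.62 ± 0.11 (adjusted p = 0.00206). Their differences on days 2, 5, 7 and 14 were 1.33, 1.26, 1.46 and 0.91 for Renbp and 0.91, 1.06, 1.17 and 0.62 for Myd88, all against the same controls. Il6r, the binding chain of the interleukin-6 receptor, rose by 1.09 ± 0.31 (adjusted p = 0.0302) and Il4r, the shared chain of the receptors for interleukins 4 and 13, by 0.78 ± 0.23 (adjusted p = 0.0358). Il6r was not called with the replicate block (adjusted p = 0.201) or without day 14 replicate 1, 2 or 3 or control replicate 4 or 5 (adjusted p 0.0551 to 0.115). Il4r was not called with the replicate block (adjusted p = 0.156) or without day 14 replicate 1, 2 or 3 or control replicate 2, 4 or 5 (adjusted p 0.0572 to 0.116). Slfn4, a Schlafen family member of myeloid cells that is 1 of the 12 largest rises called on all 3 scales, read 7.02, 7.06 and 6.81 on day 14, with control values of 4.84, 5.16 and 6.11. It rose by 1.71 ± 0.49 (adjusted p = 0.0323), against 5.59 on day 7. Slfn4 was not called with the replicate block (adjusted p = 0.186) or without day 14 replicate 1, 2 or 3 or control replicate 2, 3, 4, 5 or 6 (adjusted p 0.0503 to 0.114).

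**Figure D2:**
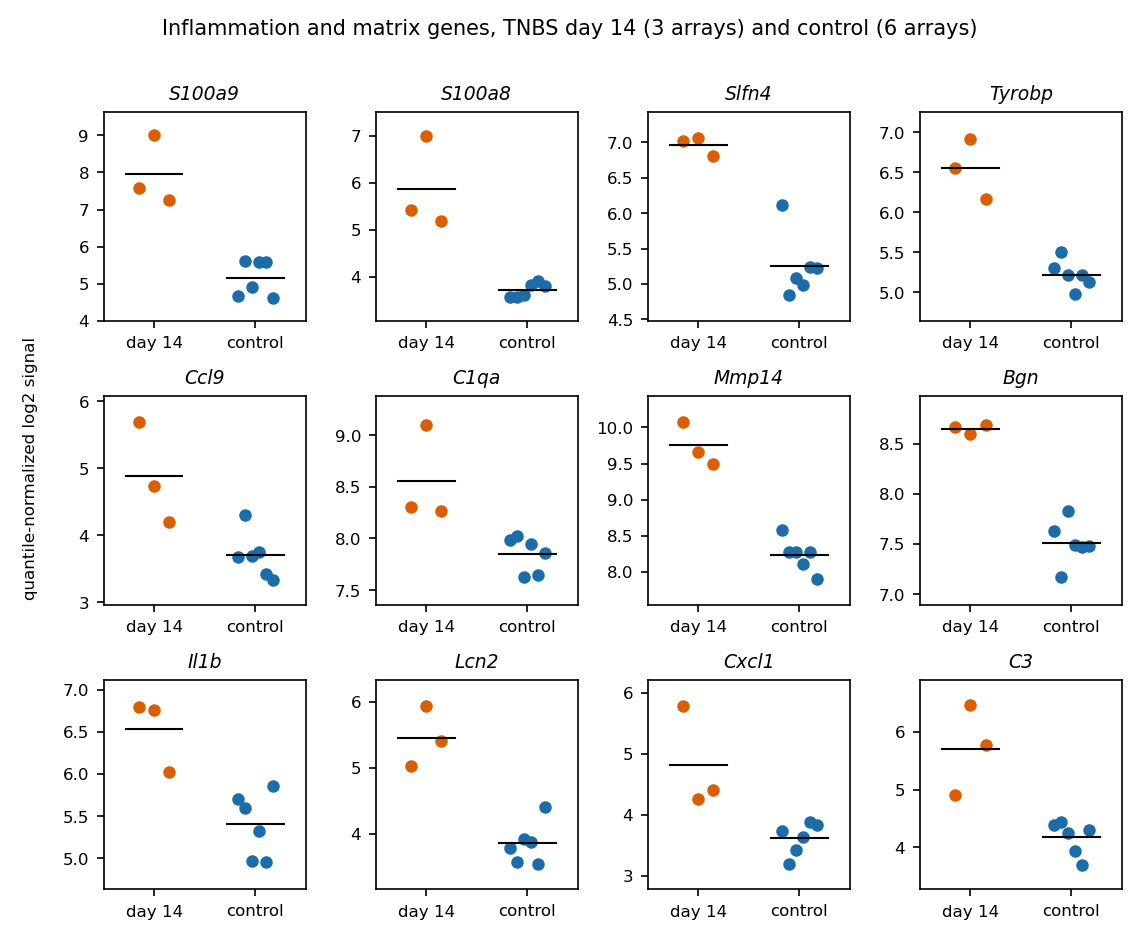
Quantile-normalized log2 signal of 12 genes in each array, with the 3 day 14 arrays in orange, the 6 control arrays in blue and a line at each group mean; the vertical axes differ between genes and do not start at 0. S100a9, Mmp14 and Bgn separate the groups by a wide gap, while Il1b, Lcn2, Cxcl1 and C3 lie above control in each day 14 array without passing the test.

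Several inflammatory genes with large differences on day 7 did not pass the test on day 14. Il1b, the inflammatory cytokine interleukin-1 beta, read 6.79, 6.76 and 6.02 on day 14, with lowest, median and highest control values of 4.95, 5.46 and 5.86. Every day 14 array lay above the highest control array, and the difference was 1.13 ± 0.43 (adjusted p = 0.105). The day 7 difference was 6.62, and day 14 minus day 7 was -5.49 ± 0.5 (adjusted p = 5.64e-05). Lcn2, the iron-withholding lipocalin of neutrophils and inflamed epithelium, read 5.03, 5.94 and 5.4 on day 14, with control values of 3.54, 3.83 and 4.4. Cxcl1, a chemokine that draws neutrophils, read 5.79, 4.26 and 4.41 on day 14, with control values of 3.19, 3.69 and 3.88. All 3 day 14 arrays lay above all controls for both, with differences of 1.61 ± 0.66 (adjusted p = 0.129) and 1.2 ± 0.45 (adjusted p = 0.0948). C3, the central complement component, differed by 1.55 ± 0.58 (adjusted p = 0.098), Timp1, an inhibitor of metalloproteinases, by 0.42 ± 0.53 (adjusted p = 0.667), and Pla2g2a, a secreted bactericidal phospholipase, by 0.59 ± 0.31 (adjusted p = 0.246). A p above the threshold does not show that these levels equal control.

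Over the chemokine list 1 of 30 genes rose, over the cytokines and mediators 1 of 29 and over complement 1 of 17, where 6.40% of all genes rose. None fell in these 3 lists. The chemokine was Ccl9, which attracts dendritic cells and monocytes in rodents. It read 5.69, 4.74 and 4.2 on day 14, with control values of 3.34, 3.68 and 4.31, so that 1 control array, replicate 2, lay above the lowest day 14 array. Ccl9 rose by 1.18 ± 0.3 (adjusted p = 0.0185), against 4.7 on day 7. Ccl9 was not called with the replicate block (adjusted p = 0.162) or without day 14 replicate 1 or 2 (adjusted p 0.0549 to 0.125). Alox5, the first enzyme of leukotriene synthesis, rose by 0.52 ± 0.12 (adjusted p = 0.00909), with values of 4.51, 4.47 and 4.76 on day 14 and control values of 3.87, 3.98 and 4.42. Alox5 was not called with the replicate block (adjusted p = 0.0624) or without day 14 replicate 3 (adjusted p = 0.0637). Differences of Alox5 on days 2, 5 and 7 were 0.37, 0.36 and 0.23. Tnf read 4.28, 4.25 and 4.39 on day 14 and 3.7, 3.96 and 4.07 in control and did not pass the test (adjusted p = 0.0566).

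In the list of mucosal defence and acute phase genes 1 of 19 rose (6.40% of all genes rose), and the list's median difference was 0.13. The gene that rose was Dmbt1, a scavenger glycoprotein of crypt epithelium that binds bacteria, which read 12.65, 12.74 and 12.63 on day 14, with control values of 10.66, 11.65 and 12.05. The day 14 rats lay close together and above every control rat, and Dmbt1 rose by 1.09 ± 0.33 (adjusted p = 0.044). Dmbt1 was not called with the replicate block (adjusted p = 0.181) or without day 14 replicate 1, 2 or 3 or control replicate 1, 2, 4 or 5 (adjusted p 0.0556 to 0.144) or with median centring (0.72, adjusted p = 0.0905). Reg3g, a lectin that kills Gram-positive bacteria, read 6.97, 7.53 and 5.92 on day 14, with control values of 3.46, 4.26 and 5.74. Duox2, the epithelial oxidase that makes hydrogen peroxide, read 8.93, 10.12 and 10.14 on day 14, with control values of 7.97, 8.43 and 9.12. Reg3g lay above every control array in all 3 day 14 rats, whereas Duox2 overlapped in 1 of them. Neither passed the test, with 2.28 ± 0.74 (adjusted p = 0.0587) and 1.29 ± 0.42 (adjusted p = 0.0611), and Reg3g passed without control replicate 1 and Duox2 without day 14 replicate 1 or control replicate 1.

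In the interferon response list 4 of 26 genes rose, and in the list of MHC class I antigen presentation 4 of 16, where 6.40% of all genes rose. With the replicate block 1 and 1 did, and 0 and 1 of the rises held without each array. Medians of the lists were 0.28 and 0.47, against -0.02 over all genes, and no member of either fell. Tap1, 1 chain of the pump that loads peptides for class I molecules, read 6.55, 7.06 and 6.54 on day 14, with lowest, median and highest control values of 5.28, 5.59 and 5.82. Irf1, a transcription factor induced by interferon gamma, read 8.83, 8.95 and 9.05 on day 14, with control values of 7.89, 8.16 and 8.22. Both separated the groups by a wide gap. Tap1 rose by 1.16 ± 0.32 (adjusted p = 0.0275) and Irf1 by 0.86 ± 0.25 (adjusted p = 0.0344), with differences on days 2, 5 and 7 of 1.06, 2.71 and 1.61 for Tap1 and 0.69, 1.65 and 1.23 for Irf1. Tap1 was not called with the replicate block (adjusted p = 0.131) or without day 14 replicate 1, 2 or 3 or control replicate 4 (adjusted p 0.0527 to 0.142). Irf1 was not called with the replicate block (adjusted p = 0.104) or without day 14 replicate 1, 2 or 3 or control replicate 1, 4 or 6 (adjusted p 0.0535 to 0.116).

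Oasl, a member of the oligoadenylate synthetase family, rose by 0.79 ± 0.2 (adjusted p = 0.0187) and was the interferon gene among the called ones that differed among the 4 TNBS days (F test adjusted p = 0.00705), with differences of 0.19, 1.67, 1.59 and 0.79 on days 2, 5, 7 and 14. Isg20, an exonuclease that degrades viral RNA, rose by 0.63 ± 0.17 (adjusted p = 0.0234) and kept its call with the replicate block. Stat2, a transcription factor of the type I interferon signal, rose by 0.52 ± 0.16 (adjusted p = 0.0448). Oasl was not called with the replicate block (adjusted p = 0.0899) or without day 14 replicate 1 or 2 (adjusted p 0.0572 to 0.104). Isg20 lost its call without day 14 replicate 1 or 3 (adjusted p 0.0595 to 0.114). Stat2 was not called with the replicate block (adjusted p = 0.241) or without day 14 replicate 2 or 3 or control replicate 1, 2, 4, 5 or 6 (adjusted p 0.0611 to 0.283). Cxcl9, a chemokine induced by interferon gamma, read 4.1, 4.33 and 3.96 on day 14, with control values of 3.19, 3.41 and 3.9, and the difference of 0.67 ± 0.63 did not pass (adjusted p = 0.547).

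Calr, a chaperone that folds class I molecules in the endoplasmic reticulum, read 10.04, 10.2 and 10.43 on day 14, with control values of 9.5, 9.58 and 9.82, and rose by 0.61 ± 0.1 (adjusted p = 0.00158) without losing its call in any left-out array or with the block. With each array centred on its median its difference was 0.29, still called. Nlrc5, the transactivator of class I genes, rose by 0.69 ± 0.19 (adjusted p = 0.0261), and RT1-N3, a class I gene of the rat MHC, by 0.65 ± 0.16 (adjusted p = 0.0138). Rat class I genes share long stretches of sequence, so that its probe set may bind other members. Nlrc5 was not called with the replicate block (adjusted p = 0.0991) or without day 14 replicate 1, 2 or 3 (adjusted p 0.0626 to 0.1) or with median centring (0.5, adjusted p = 0.0547). RT1-N3 was not called with the replicate block (adjusted p = 0.153) or without day 14 replicate 2 (adjusted p = 0.0935). Ifi30, a thiol reductase of lysosomes that prepares antigens and is induced by interferon gamma, lies outside both lists and is another of those 12. It read 10.18, 10.56 and 9.92 on day 14, with control values of 8.36, 8.56 and 8.83, a wide gap between the groups. Ifi30 rose by 1.67 ± 0.18 (adjusted p = 3.16e-05), and its differences on days 2, 5 and 7 were 1.99, 2.22 and 2.11.

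The promoters of the 8 called genes of these 2 lists were searched for the core of the interferon-stimulated response element, written GAAANNGAAA, on both strands, from 250 bases before to 50 bases after the transcription start in RefSeq's GRCr8 annotation. Promoters were listed for 7 of these genes, and 3 hold it, Isg20, RT1-N3 and Tap1, and 1034 of all 27457 promoters do (3.77%). A match is a description of the sequence and shows no binding. The uncalled members of these lists were not searched, so that the matches cannot be tied to the rise on day 14. The 3 promoters are printed because their genes rose, with the motif in capitals, reading GAAANNGAAA on the printed strand in Isg20 and its reverse complement in the others.
Isg20, chr1:142239809-142240108, + strand: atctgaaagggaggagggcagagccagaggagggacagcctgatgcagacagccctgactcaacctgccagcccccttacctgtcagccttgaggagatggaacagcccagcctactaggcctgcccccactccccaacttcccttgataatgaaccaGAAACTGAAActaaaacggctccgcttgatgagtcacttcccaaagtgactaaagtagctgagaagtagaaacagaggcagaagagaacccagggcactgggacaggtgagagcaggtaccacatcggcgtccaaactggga
RT1-N3, chr20:2666239-2666538, + strand: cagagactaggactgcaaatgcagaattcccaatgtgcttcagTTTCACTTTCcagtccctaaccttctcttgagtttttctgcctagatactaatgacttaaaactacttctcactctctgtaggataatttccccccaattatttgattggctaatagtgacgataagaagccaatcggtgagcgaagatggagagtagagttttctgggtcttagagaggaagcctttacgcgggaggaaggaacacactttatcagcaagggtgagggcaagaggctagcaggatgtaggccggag
Tap1, chr20:4668494-4668793, - strand: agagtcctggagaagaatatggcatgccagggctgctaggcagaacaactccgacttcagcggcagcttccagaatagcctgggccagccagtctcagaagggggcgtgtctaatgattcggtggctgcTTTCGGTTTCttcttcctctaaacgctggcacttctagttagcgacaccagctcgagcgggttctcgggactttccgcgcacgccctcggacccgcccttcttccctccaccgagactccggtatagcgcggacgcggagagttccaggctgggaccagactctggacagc

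Genes of MHC class II gave the largest median of the antigen presentation lists, 0.97, yet 0 of 9 passed the test in limma, while 4 had an unadjusted p under 0.05. Their summed level was far higher in 1 control rat than in the others. The mean of the list, each gene set to its control mean, was 0.76, 1.44 and 0.52 on day 14, and -0.55 to 1.0 in control, where replicate 2 held the highest value and the next lay at 0.05. RT1-Da, a class II alpha chain, read 11.25, 11.8 and 10.9 on day 14, with control values of 9.29, 9.79 and 11.27. The difference of 1.4 ± 0.47 did not pass (adjusted p = 0.0637) and passed without control replicate 2 (adjusted p = 0.0181). Ciita, the master regulator of class II genes, differed by 1.5 ± 0.5 (adjusted p = 0.0611), with an adjusted p of 0.0364 without that rat. Without day 14 replicate 2 the adjusted p was 0.249 for RT1-Da and 0.256 for Ciita. The invariant chain Cd74 differed by 0.97 ± 0.42 (adjusted p = 0.148).

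Lymphoid tissue set 1 control rat apart from the others. In control replicate 2 the mean over the 12 lymphoid follicle genes was 1.01, with the other control rats between -0.3 and -0.11, and the mean over the 14 B and plasma cell genes was 1.37, with the others at -0.18 or lower. Day 14 rats had 1.43, 2.03 and 0.57 for the follicle list and 1.15, 1.96 and 0.16 for the B cell list. All 3 day 14 rats thus lay above the other 5 control rats in both lists, while control replicate 2 exceeded day 14 replicate 3 in the follicle list and day 14 replicates 1 and 3 in the B cell list. In homogenized tissue more lymphoid cells in the piece and more RNA per cell cannot be told apart, nor can a piece that includes a follicle from one that does not.

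Madcam1, the address of gut venules that homing lymphocytes bind, read 6.17, 6.79 and 5.83 on day 14, with lowest, median and highest control values of 4.33, 4.73 and 4.9. The groups lay far apart, and control replicate 2 was not its highest control. Madcam1 rose by 1.6 ± 0.32 (adjusted p = 0.00387), held its call without each array and with the block, and had differences of 1.56, 1.98 and 1.83 on days 2, 5 and 7. Glycam1, a mucin-like ligand of L-selectin on high endothelial venules, read 7.94, 9.53 and 5.86 on day 14, with control values of 4.43, 4.8 and 6.12. Cd37, a tetraspanin of B cells, read 6.33, 7.5 and 5.12 on day 14, with control values of 3.64, 3.86 and 5.65. For both the third day 14 rat lay below control replicate 2 and above the other 5 control rats. Glycam1 rose by 2.84 ± 0.84 (adjusted p = 0.0393) and Cd37 by 2.19 ± 0.66 (adjusted p = 0.0424). Glycam1 was not called with the replicate block (adjusted p = 0.21) or without day 14 replicate 1 or 2 or control replicate 1, 3, 4, 5 or 6 (adjusted p 0.0593 to 0.237). Cd37 was not called with the replicate block (adjusted p = 0.252) or without day 14 replicate 1 or 2 or control replicate 1, 3, 4, 5 or 6 (adjusted p 0.0616 to 0.235).

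Several genes that mark B cells and their follicles had large differences that did not pass the test. Ms4a1, the B cell surface protein CD20, which was chosen after its values were seen, read 7.9, 9.04 and 6.15 on day 14, and 8.62 in control replicate 2, where the next highest control was 4.12. Cr2, the complement receptor of B cells and follicular dendritic cells, read 7.81, 8.26 and 5.05 on day 14, and 7.59 in control replicate 2 with 3.6 as the next. The 5 other control rats lay together far below replicate 2 for both, and every day 14 rat lay above those 5. Differences were 3.18 ± 1.31 for Ms4a1 (adjusted p = 0.13), 3.04 ± 1.23 for Cr2 (adjusted p = 0.124), 2.61 ± 1.03 for Cd79b (adjusted p = 0.115), a chain of the B cell receptor, and 3.16 ± 1.23 for Cxcl13 (adjusted p = 0.112), the chemokine that draws B cells into follicles. Without control replicate 2 the adjusted p became 0.0317, 0.0377, 0.0372 and 0.0576 for Ms4a1, Cr2, Cd79b and Cxcl13. Without day 14 replicate 2 it became 0.392, 0.375, 0.398 and 0.353 for the same genes. Lists counted without control replicate 2 gave 4 B cell, 4 follicle and 2 class II genes that rose, against 1, 2 and 0 with it. Counted without day 14 replicate 2 they gave 0, 1 and 0.

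**Figure D3:**
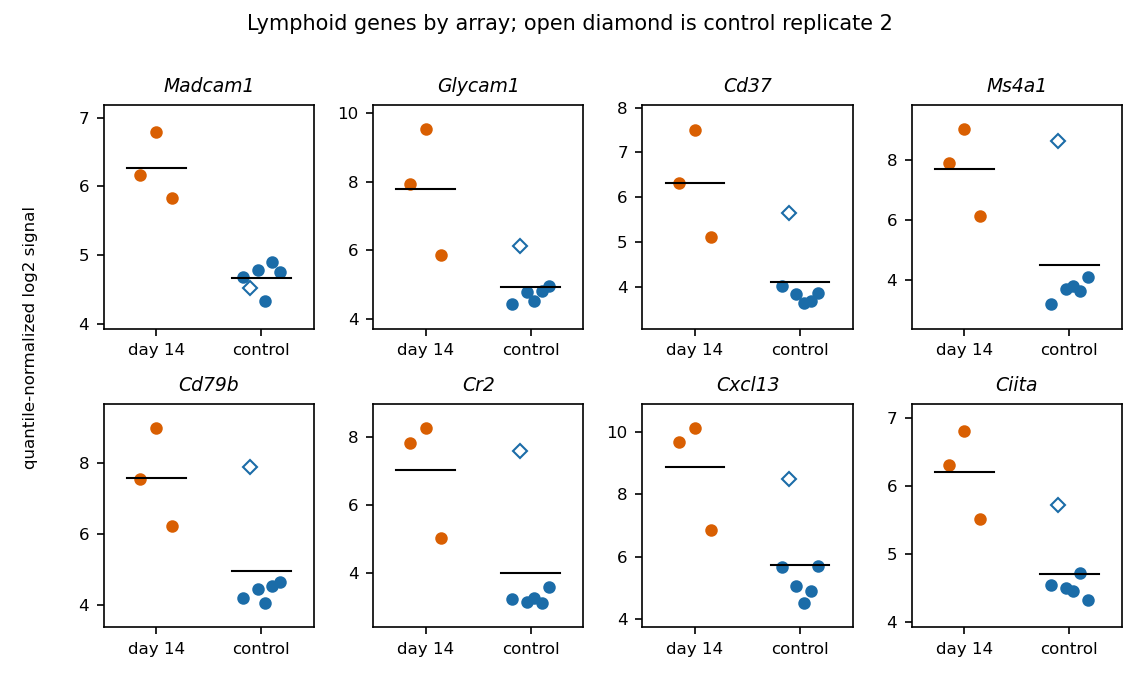
Quantile-normalized log2 signal of 8 lymphoid genes in the 3 day 14 arrays (orange) and 6 control arrays (blue), with control replicate 2 as an open diamond and a line at each group mean; the vertical axes differ and do not start at 0. Control replicate 2 stands with the day 14 arrays in all genes but Madcam1, where it lies among the other controls.

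Among leukocyte genes at large, Il2rg, the shared chain of the interleukin-2 receptor family, rose by 2.29 ± 0.7 (adjusted p = 0.044) and Arhgap9, a GTPase activator of blood cells, by 1.73 ± 0.5 (adjusted p = 0.0344). Both had their highest control value in replicate 2, at 7.02 and 4.79. Il2rg was not called with the replicate block (adjusted p = 0.237) or without day 14 replicate 1 or 2 or control replicate 1, 3, 4, 5 or 6 (adjusted p 0.0648 to 0.229). Arhgap9 was not called with the replicate block (adjusted p = 0.226) or without day 14 replicate 1, 2 or 3 or control replicate 3, 4, 5 or 6 (adjusted p 0.0551 to 0.166). T and NK cell genes rose in 1 of 24 cases (6.40% of all genes rose), namely Cd4, the coreceptor of helper T cells, with 0.35 ± 0.1 (adjusted p = 0.0375). Cd4 was not called without day 14 replicate 1, 2 or 3 or control replicate 2, 3 or 4 (adjusted p 0.0518 to 0.138) or with median centring (0.25, adjusted p = 0.0875). Cd3e, a chain of the T cell receptor complex, read 5.46, 6.85 and 5.34 on day 14 and 4.65, 4.84 and 5.65 in control, and did not pass (adjusted p = 0.404).

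Mast cell proteases moved in both directions. Cma1, the chymase of connective tissue mast cells, read 4.72, 4.69 and 4.89 on day 14, with control values of 3.72, 4.08 and 4.14, and rose by 0.74 ± 0.15 (adjusted p = 0.00547), with an adjusted p that rounds to 0.05 with the replicate block and still passed. Mcpt4 fell (-0.45 ± 0.13, adjusted p = 0.0344), although its deposited difference was 0.07. Its signals were low, 3.47, 3.29 and 3.39 on day 14 with control values of 3.53, 3.81 and 4.33. Mcpt4 was not called with the replicate block (adjusted p = 0.0945) or without day 14 replicate 1, 2 or 3 or control replicate 3 or 5 (adjusted p 0.0562 to 0.149). Its median-centred difference was -0.68. Mcpt1, another mast cell protease, read 8.69, 8.85 and 8.53 on day 14, with control values of 7.04, 8.52 and 9.7. Its day 14 rats lay inside the control range, where differences on days 2, 5 and 7 were -2.56, -2.16 and -2.03, and the day 14 difference was 0.22 ± 0.61 (adjusted p = 0.862). Retnla, a resistin-like protein of macrophages and eosinophils in type 2 responses, likewise lay inside the control range, with 0.03 ± 1.26 (adjusted p = 0.991).

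Interstitial collagens gave no call against control on day 14. In limma none of the 15 interstitial collagens passed the test, with 0 at an unadjusted p under 0.05, their median difference was 0.06, and 14 of them were lower than on day 7, when the median against the same controls was 1.62. Col1a1, the main fibrillar collagen of scar, read 10.92, 9.2 and 9.73 on day 14, with lowest, median and highest control values of 9.76, 9.82 and 10.02. The first day 14 rat lay above all controls and the other 2 below them. The difference was 0.11 ± 0.39 (adjusted p = 0.896), and for Col3a1, which comes early in repair, 0.16 ± 0.17 (adjusted p = 0.59). Collagen processing enzymes had 0 of 16 called and 11 lower than on day 7, and the fibroblast list had 0 of 22 called against control, with 0 and 5 at an unadjusted p under 0.05.

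Bgn and Mmp14 were still above control. Bgn, a small proteoglycan that binds collagen and TGF-beta, read 8.67, 8.6 and 8.69 on day 14, with control values of 7.17, 7.49 and 7.83. Mmp14, a membrane-bound collagenase that activates Mmp2, read 10.07, 9.66 and 9.5 on day 14, with control values of 7.9, 8.27 and 8.58. In both the gap between the groups was wide and the day 14 rats lay close together. Bgn rose by 1.14 ± 0.2 (adjusted p = 0.00196) and Mmp14 by 1.51 ± 0.22 (adjusted p = 0.000487), and both held without each array and with the block. On days 2, 5 and 7 the differences were 1.25, 2.25 and 2.79 for Bgn and 1.56, 2.09 and 2.96 for Mmp14. A second, dimmer probe set of Mmp14 was not called, and the metalloproteinase list had 1 rise among 27 genes.

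Some other matrix genes lay below control. In the list of matricellular proteins, proteoglycans and elastic fibre genes 5 of 29 fell (6.37% of all genes), 3 of them with a deposited difference above 0, and with the replicate block 0 did. Besides Bgn, which rose, 23 members were not called, and the list's median was -0.09. The day 14 rats did not share a direction, with list means of 0.24, -0.37 and -0.31, and -0.08 to 0.08 in control. Efemp1, a fibulin, read 6.63, 5.8 and 6.72 on day 14, with control values of 7.38, 7.5 and 8.52, and fell (-1.31 ± 0.35, adjusted p = 0.0254). Fbn1, the fibrillin of elastic microfibrils, read 7.65, 7.19 and 7.18 on day 14, with control values of 7.52, 8.06 and 8.4. It fell (-0.69 ± 0.21, adjusted p = 0.0418) with a deposited difference of 0.01, after a difference of 0.89 on day 7. Postn, periostin, fell (-0.64 ± 0.2, adjusted p = 0.0443; median-centred -1.02), Prelp, a leucine-rich anchor between basement membrane and collagen, fell as well (-0.58 ± 0.16, adjusted p = 0.0263; deposited 0.23), and Fmod, fibromodulin, fell as well (-0.77 ± 0.23, adjusted p = 0.0392; deposited 0.05). The arrays of Efemp1 did not overlap, while 1 day 14 array of Fbn1 and of Postn reached the control range. Efemp1 was not called with the replicate block (adjusted p = 0.14) or without day 14 replicate 2 (adjusted p = 0.156). Fbn1 was not called with the replicate block (adjusted p = 0.257) or without day 14 replicate 2 or 3 or control replicate 3, 4, 5 or 6 (adjusted p 0.0578 to 0.17). Postn was not called with the replicate block (adjusted p = 0.116) or without day 14 replicate 2 or 3 or control replicate 1, 2, 3, 4 or 5 (adjusted p 0.0511 to 0.213). Prelp was not called with the replicate block (adjusted p = 0.0503) or without day 14 replicate 1 or 2 (adjusted p 0.122 to 0.133). Fmod was not called with the replicate block (adjusted p = 0.157) or without day 14 replicate 1, 2 or 3 or control replicate 1, 4, 5 or 6 (adjusted p 0.0544 to 0.149).

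Timp4, a metalloproteinase inhibitor of muscle, fell (-0.5 ± 0.12, adjusted p = 0.0117; deposited 0.26) and Col4a6, a basement membrane collagen of smooth muscle, fell as well (-0.53 ± 0.16, adjusted p = 0.0356; deposited 0.34). Timp4 was not called with the replicate block (adjusted p = 0.0615) or without day 14 replicate 2 or 3 (adjusted p 0.0586 to 0.0726). Col4a6 was not called with the replicate block (adjusted p = 0.158) or without day 14 replicate 1, 2 or 3 or control replicate 3, 4 or 5 (adjusted p 0.057 to 0.152) or with median centring (-0.41, adjusted p = 0.0525). In the TGF-beta pathway Smad3, the mediator that carries the signal to the nucleus, read 7.82, 7.54 and 7.69 on day 14, with control values of 6.97, 7.0 and 7.3. It rose by 0.61 ± 0.13 (adjusted p = 0.00684) and had differences of 0.24, 0.22 and 0.02 on the earlier days. Day 14 exceeded day 7 by 0.59 ± 0.15 (adjusted p = 0.0379).

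Smooth muscle genes had the largest share of falls of any cell type list of 20 genes or more, 5 of 22 that fell (6.37% of all genes fell) and 0 that rose, with a median of -0.39. Of these falls 3 held on all 3 scales, 3 genes fell with the replicate block, and 2 held without each array. Csrp1, a LIM protein of actin filaments, read 10.88, 10.45 and 10.72 on day 14, with lowest, median and highest control values of 11.55, 11.79 and 12.18. Tagln, the actin-binding protein SM22 of smooth muscle, read 12.41, 11.88 and 12.13 on day 14, with control values of 12.9, 13.02 and 13.2. In both, every day 14 rat lay below every control rat. Csrp1 fell (-1.13 ± 0.18, adjusted p = 0.00101; deposited -0.76) and Tagln (-0.89 ± 0.17, adjusted p = 0.00283; deposited -0.64, median-centred -1.39).

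Smtn, smoothelin, a protein of contractile smooth muscle, read 9.1, 8.7 and 8.97 on day 14, with control values of 9.68, 10.03 and 10.78, and fell (-1.17 ± 0.29, adjusted p = 0.0164). Tpm1, a tropomyosin, fell (-0.65 ± 0.17, adjusted p = 0.0248; median-centred -1.01), and Itga8, an integrin chain of smooth muscle and fibroblasts, fell as well (-0.45 ± 0.11, adjusted p = 0.0145; deposited 0.19), after 0.44 on day 7. Smtn was not called without day 14 replicate 2 or 3 (adjusted p 0.0528 to 0.0896). Tpm1 was not called with the replicate block (adjusted p = 0.101) or without day 14 replicate 2 (adjusted p = 0.172). Itga8 was not called with the replicate block (adjusted p = 0.109) or without day 14 replicate 2 (adjusted p = 0.0899). Signals of Itga8 were low, 3.96, 3.81 and 3.98 on day 14 with control values of 4.07, 4.37 and 4.63. The means over the list, each gene set to its control mean, were -0.23, -0.64 and -0.42 on day 14 and -0.18 to 0.18 in control. Less muscle in the piece and less RNA per muscle cell cannot be told apart.

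Interstitial cells of Cajal pace the contractions of the gut. Etv1, the transcription factor that maintains them, read 5.86, 5.75 and 5.39 on day 14, with control values of 6.6, 6.93 and 7.56, and fell (-1.34 ± 0.21, adjusted p = 0.000842). It held without each array and with the block. Hcn4, a pacemaker channel, fell (-0.5 ± 0.13, adjusted p = 0.0227; deposited 0.25), and Ano1, the chloride channel that defines these cells, differed (-0.72 ± 0.29, adjusted p = 0.129). Hcn4 was not called with the replicate block (adjusted p = 0.0573) or without day 14 replicate 1 (adjusted p = 0.146). Etv1 and Hcn4 were 2 falls among 8 genes of the list, where 6.37% of all genes fell, and the list's median was -0.18. Kit, another member, differed the other way, by 0.24 ± 0.11, without passing the test (adjusted p = 0.162). Its signals were low, 3.86, 4.0 and 4.01 on day 14 with control values of 3.6, 3.69 and 4.01.

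Nerve genes fell in 3 of 26 cases for neurons and 2 of 11 for glia (6.37% of all genes fell), 0 and 0 of them on all 3 scales, and none rose. The list medians were -0.22 and -0.18. Neuron list means of -0.07, -0.22 and -0.36 on day 14 lay inside the control range of -0.4 to 0.18. Those of glia, -0.3, -0.28 and -0.31, lay below their control range of -0.09 to 0.17. Gal, the neuropeptide galanin, read 6.52, 6.1 and 6.1 on day 14, with control values of 7.02, 7.52 and 8.29. Scn7a, a sodium channel of glia, read 8.82, 8.93 and 8.65 on day 14, with control values of 9.44, 9.78 and 10.18. Both lay wholly below control. Gal fell (-1.32 ± 0.32, adjusted p = 0.014) and Scn7a (-1.04 ± 0.25, adjusted p = 0.0148). Calb2, the calcium-binding protein calretinin of enteric neurons and mesothelium, fell (-0.76 ± 0.22, adjusted p = 0.0332; deposited 0.07), Nefl, a neurofilament, fell as well (-0.67 ± 0.21, adjusted p = 0.0495; deposited 0.21), and Gpm6b, a proteolipid of glia and neurons, fell as well (-0.49 ± 0.15, adjusted p = 0.045; deposited 0.34). Scn7a was not called with the replicate block (adjusted p = 0.0762) or without day 14 replicate 3 (adjusted p = 0.0682). Gpm6b was not called with the replicate block (adjusted p = 0.222) or without day 14 replicate 2 or 3 or control replicate 1, 2, 4, 5 or 6 (adjusted p 0.0567 to 0.21). Gal lost its call without day 14 replicate 2 or 3 (adjusted p 0.0613 to 0.0697). Calb2 lost its call without day 14 replicate 1, 2 or 3 or control replicate 1, 2, 3, 4 or 6 (adjusted p 0.0503 to 0.13), and Nefl without day 14 replicate 2 or 3 or control replicate 1, 2, 3, 4 or 6 (adjusted p 0.0751 to 0.199) or with median centring (-0.54, adjusted p = 0.0681). S100b, the classical glial marker, differed (-1.03 ± 0.35, adjusted p = 0.0699) and was called without control replicate 5 (adjusted p = 0.0391).

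In the list of endothelial and lymphatic genes 2 of 22 fell (6.37% of all genes fell), both markers of lymphatic endothelium. The list had a median of 1.43 on day 7 and 0.09 on day 14. Flt4, the receptor for the lymphatic growth factor VEGF-C, read 4.14, 4.3 and 4.32 on day 14, with control values of 4.94, 5.07 and 5.44. Prox1, the transcription factor that sets lymphatic identity, read 4.97, 4.91 and 5.05 on day 14, with control values of 5.29, 5.52 and 5.7. No array overlapped. Flt4 fell (-0.86 ± 0.11, adjusted p = 0.000154; deposited -0.13) and Prox1 (-0.54 ± 0.11, adjusted p = 0.00363; deposited 0.29), and both held without each array and with the block. A second, dimmer probe set of Prox1 was called higher, so that its direction rests on the brighter one. Lyve1, a hyaluronan receptor of lymphatic vessels, differed (-0.86 ± 0.31, adjusted p = 0.0874) and was called without control replicate 5 (adjusted p = 0.0135).

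**Figure D4:**
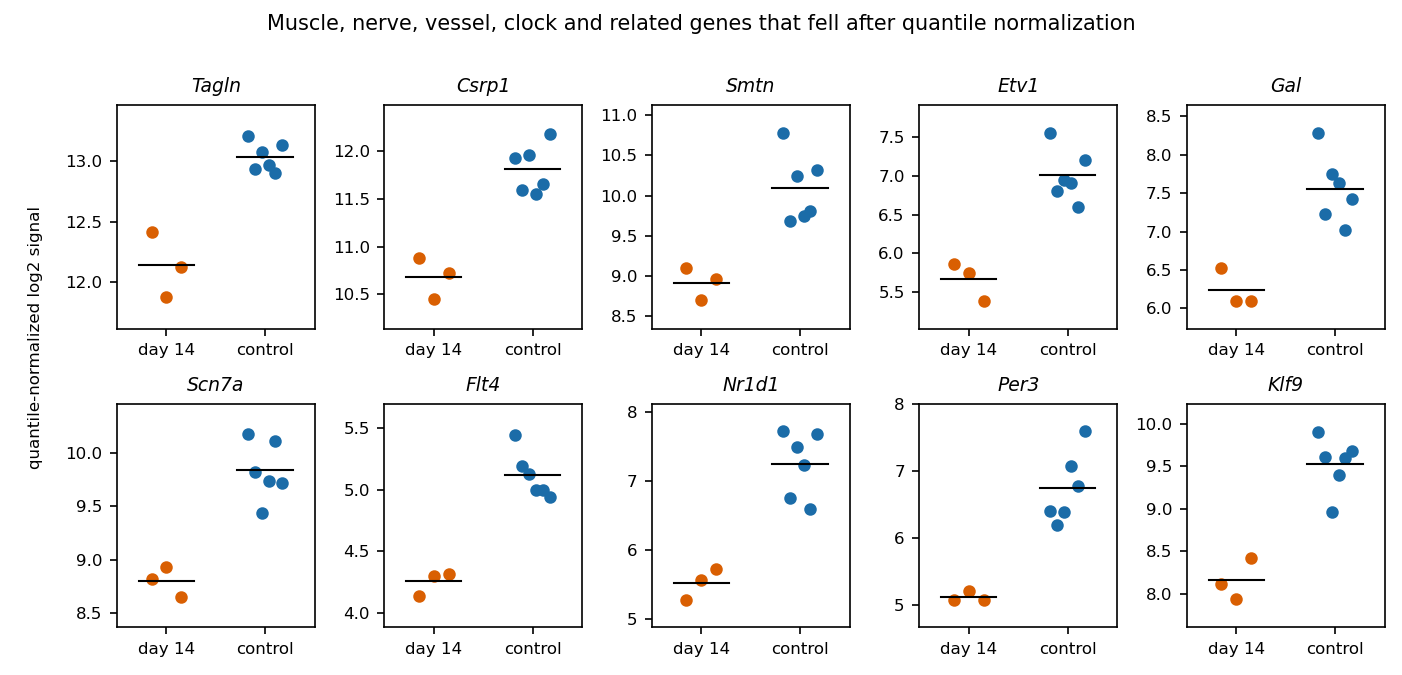
Quantile-normalized log2 signal of 10 genes that fell, in the 3 day 14 arrays (orange) and 6 control arrays (blue), with a line at each group mean; the vertical axes differ and do not start at 0. All day 14 arrays lie below all control arrays in each gene, and the deposited difference of each is below 0 too.

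No epithelial identity or brush border gene passed the test. Of 19 epithelial identity genes and 25 brush border genes none was called in limma, with 2 and 2 at an unadjusted p under 0.05 and medians of 0.16 and 0.16, where day 7 had -0.56 and -0.93. Cdx2, the transcription factor of intestinal identity, read 9.32, 9.57 and 9.27 on day 14, with control values of 8.39, 8.85 and 9.09, and Muc2, the secreted goblet cell mucin, read 13.41, 13.45 and 13.41, with 13.01, 13.16 and 13.32 in control. Car1, a carbonic anhydrase of surface colonocytes, read 13.13, 13.36 and 13.17 on day 14 and 12.14, 13.0 and 13.28 in control, so that markers of the labelled tissue were bright in both groups. Differences were 0.59 ± 0.39 for Cdx2 (adjusted p = 0.372), 0.27 ± 0.23 for Muc2 (adjusted p = 0.512) and 0.27 ± 0.28 for Vil1, the villin of the brush border (adjusted p = 0.587). Slc26a3, the chloride and bicarbonate exchanger of colon surface, differed (-0.45 ± 0.42, adjusted p = 0.537), where days 2, 5 and 7 had -1.66, -1.5 and -1.47. Aqp8, a water channel, and Slc9a3, the main sodium and hydrogen exchanger, differed by 0.41 ± 0.72 (adjusted p = 0.766) and -0.36 ± 0.73 (adjusted p = 0.806).

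Few genes of epithelial function were called. Slc26a6, an anion exchanger, rose by 0.49 ± 0.15 (adjusted p = 0.0395) as 1 of 33 transport genes. Tjp3, a tight junction scaffold, read 7.67, 8.02 and 8.04 on day 14, with control values of 6.9, 7.1 and 7.18, and rose by 0.84 ± 0.19 (adjusted p = 0.0103), 1 of 20 junction genes. Galnt3, an enzyme that starts mucin glycans, read 5.9, 5.76 and 5.95 on day 14, with control values of 6.21, 6.63 and 6.84, and fell (-0.73 ± 0.16, adjusted p = 0.00734; deposited 0.14) without losing its call in a left-out array or with the block. Tjp3 was not called with the replicate block (adjusted p = 0.0804) or without day 14 replicate 2 or 3 (adjusted p 0.0548 to 0.0587). Slc26a6 lost its call without day 14 replicate 1, 2 or 3 or control replicate 1, 2, 4, 5 or 6 (adjusted p 0.0541 to 0.169). Among 14 enteroendocrine genes 2 fell and 0 rose, where 6.37% of all genes fell, and the list's median was -0.1. List means of -0.07, 0.11 and -0.17 on day 14 lay inside the control range of -0.2 to 0.15. Pyy, the hormone peptide YY, fell (-0.72 ± 0.22, adjusted p = 0.042, deposited 0.01). Neurod1, a transcription factor of endocrine cells, fell as well (-0.47 ± 0.13, adjusted p = 0.0287, deposited 0.12). Of the uncalled members, Cck differed by 0.49 ± 0.2 (adjusted p = 0.128) and Sstr1 by -1.37 ± 0.47 (adjusted p = 0.0733). All 3 day 14 arrays of Cck lay above every control array. Pyy was not called with the replicate block (adjusted p = 0.1) or without day 14 replicate 1, 2 or 3 or control replicate 1, 2, 3 or 4 (adjusted p 0.0575 to 0.168). Neurod1 was not called with the replicate block (adjusted p = 0.051) or without day 14 replicate 2 or 3 or control replicate 3, 4 or 6 (adjusted p 0.0507 to 0.116). Signals of Neurod1 were low, 3.81, 3.7 and 3.61 on day 14 with control values of 3.86, 4.26 and 4.33.

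Crypt, Wnt and repair genes changed in both directions, 3 up and 2 down of 29, where 6.40% of all genes rose and 6.37% fell. Hbegf, a growth factor that drives epithelial restitution, read 5.06, 4.95 and 5.09 on day 14, with lowest, median and highest control values of 4.26, 4.39 and 4.6. Wnt5b, a signal of stromal and smooth muscle cells, read 4.82, 5.4 and 4.93 on day 14, with control values of 5.71, 6.0 and 6.29. Each separated the groups and held its call without each array and with the block. Hbegf rose by 0.62 ± 0.11 (adjusted p = 0.0022), and Wnt5b fell (-0.95 ± 0.15, adjusted p = 0.000759; deposited -0.1). Myc, which drives growth in crypts, rose by 0.53 ± 0.13 (adjusted p = 0.0134), Fgf10, a mesenchymal growth factor for epithelium, by 0.27 ± 0.07 (adjusted p = 0.0163), and Sfrp2, a secreted modulator of Wnt signals, fell (-1.08 ± 0.3, adjusted p = 0.029). Myc lost its call without day 14 replicate 2 or 3 (adjusted p 0.0547 to 0.0613). Fgf10 was not called with the replicate block (adjusted p = 0.136) or without day 14 replicate 2 or 3 (adjusted p 0.0696 to 0.0937) or with median centring (0.04, adjusted p = 0.734). Its signals were low, 3.71, 3.82 and 3.9 on day 14 with control values of 3.45, 3.53 and 3.64. Sfrp2 was not called with the replicate block (adjusted p = 0.184) or without day 14 replicate 1, 2 or 3 or control replicate 4 or 5 (adjusted p 0.0534 to 0.144). None of 32 cell division genes was called in limma, with 4 at an unadjusted p under 0.05, and Mki67, present in dividing cells, differed by 0.05 ± 0.28 (adjusted p = 0.931).

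Metabolic genes gave single calls on both sides. Cyc1, the cytochrome of respiratory complex III, read 10.96, 11.23 and 11.12 on day 14, with control values of 9.9, 10.0 and 10.09. Cpt2, which passes fatty acids to oxidation inside mitochondria, read 7.61, 7.52 and 7.4 on day 14, with control values of 5.88, 6.23 and 6.85. Both lay wholly above control and held without each array and with the block. Cyc1 rose by 1.1 ± 0.13 (adjusted p = 7.14e-05) and Cpt2 by 1.23 ± 0.23 (adjusted p = 0.00236). In the fatty acid list Slc25a20, the carnitine carrier, also rose, by 0.49 ± 0.11 (adjusted p = 0.00909), making 2 of 25. Slc25a20 lost its call without day 14 replicate 3 (adjusted p = 0.054).

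In the citric acid cycle and respiratory chain 2 of 29 rose and 1 fell, and 8 were higher than on day 7 (1.72% of all genes were). Dlst, a subunit of the oxoglutarate dehydrogenase complex, rose by 0.51 ± 0.09 (adjusted p = 0.00231), with -0.08 on day 7 and a median-centred difference of 0.3. Cox6a1, a subunit of cytochrome oxidase, read 11.57, 11.53 and 11.49 on day 14, with control values of 11.89, 12.01 and 12.17. It fell (-0.49 ± 0.08, adjusted p = 0.000718; deposited -0.09, median-centred -0.84), a smaller loss than the -0.94 of day 7, with a day 14 minus day 7 difference of 0.44 ± 0.09 (adjusted p = 0.0106). Hk2, an inducible hexokinase, rose by 1.42 ± 0.31 (adjusted p = 0.00819), while Pgk1, a later enzyme of glycolysis, fell (-0.57 ± 0.12, adjusted p = 0.00498; deposited -0.22, median-centred -0.97). Hk2 lost its call without day 14 replicate 2 or 3 (adjusted p 0.0549 to 0.0639).

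Cholesterol synthesis genes rose in 4 of 17 cases (6.40% of all genes rose), 2 rose with the replicate block, and 2 rose on all 3 scales. Mvk, mevalonate kinase, read 5.84, 5.93 and 5.84 on day 14, with control values of 4.76, 5.2 and 5.63. Pmvk, which acts next in the pathway, read 7.91, 7.82 and 8.06 on day 14, with control values of 6.92, 7.35 and 7.73. Day 14 rats lay above control rats in each. Mvk rose by 0.64 ± 0.13 (adjusted p = 0.00581), Pmvk by 0.64 ± 0.15 (adjusted p = 0.0105), Srebf2, the transcription factor that switches the pathway on, by 0.51 ± 0.13 (adjusted p = 0.0178), and Fdps, farnesyl diphosphate synthase, by 0.62 ± 0.16 (adjusted p = 0.0222). Pmvk lost its call without day 14 replicate 3 (adjusted p = 0.0597). Srebf2 was not called with the replicate block (adjusted p = 0.0844) or without day 14 replicate 1, 2 or 3 (adjusted p 0.0507 to 0.0832) or with median centring (0.28, adjusted p = 0.109). Fdps was not called with the replicate block (adjusted p = 0.059) or without day 14 replicate 2 or 3 (adjusted p 0.082 to 0.109) or with median centring (0.33, adjusted p = 0.107). The list's median was 0.07.

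Protein folding genes of the endoplasmic reticulum rose in 4 of 27 cases (6.40% of all genes rose), Calr among them, and 3 on all 3 scales. Pdia4, a disulfide isomerase, read 8.46, 8.84 and 8.9 on day 14, with control values of 7.28, 7.5 and 8.21, and rose by 1.09 ± 0.24 (adjusted p = 0.00749) in every left-out fit and with the block. Creld2 rose by 0.7 ± 0.21 (adjusted p = 0.0426), Hsp90b1, a chaperone of secreted proteins, by 0.6 ± 0.18 (adjusted p = 0.0414), and Herpud1, part of the machinery that degrades misfolded proteins, fell (-0.79 ± 0.2, adjusted p = 0.017; deposited -0.23). Creld2 lost its call without day 14 replicate 2 or 3 or control replicate 1, 3, 4 or 6 (adjusted p 0.0694 to 0.16). Hsp90b1 was not called with the replicate block (adjusted p = 0.0506) or without day 14 replicate 2 or 3 or control replicate 1, 3, 4 or 6 (adjusted p 0.0551 to 0.172) or with median centring (0.23, adjusted p = 0.31). Herpud1 was not called with the replicate block (adjusted p = 0.0644) or without day 14 replicate 1 (adjusted p = 0.115).

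Among antioxidant, haem and iron genes 3 of 28 rose (6.40% of all genes rose), 1 of them on all 3 scales. Gpx4, which protects membranes from lipid peroxides, read 10.72, 10.67 and 10.68 on day 14, with control values of 9.83, 10.12 and 10.31, and rose by 0.6 ± 0.1 (adjusted p = 0.00155), a call that held in every left-out fit and with the block. Its median-centred difference was 0.26, still called. Prdx2, a peroxiredoxin, rose by 0.51 ± 0.12 (adjusted p = 0.0132) and Sod1, the cytosolic superoxide dismutase, by 0.39 ± 0.12 (adjusted p = 0.0409). Sod1 was not called with the replicate block (adjusted p = 0.152) or without day 14 replicate 1, 2 or 3 or control replicate 1, 3, 4 or 5 (adjusted p 0.0572 to 0.225) or with median centring (0.01, adjusted p = 0.939). Prdx2 lost its call without day 14 replicate 2 (adjusted p = 0.0848) or with median centring (0.2, adjusted p = 0.181). In xenobiotic metabolism 2 of 27 fell (6.37% of all genes fell), Cyp2c11, a cytochrome P450 of rats (-0.39 ± 0.1, adjusted p = 0.0152, deposited 0.24) and Sult1c2, a sulfotransferase (-0.86 ± 0.21, adjusted p = 0.0165, deposited -0.2). Cyp2c11 lost its call without day 14 replicate 1 (adjusted p = 0.0667). Sult1c2 was not called with the replicate block (adjusted p = 0.0992) or without day 14 replicate 2 (adjusted p = 0.118).

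The circadian clock list had the largest share of falls of all 48 lists, 5 of 16 (6.37% of all genes fell), and 3 with the replicate block. Nr1d1, the repressor REV-ERB alpha, read 5.27, 5.56 and 5.73 on day 14, with lowest, median and highest control values of 6.59, 7.36 and 7.73. Per3, a period gene, read 5.08, 5.21 and 5.07 on day 14, with control values of 6.19, 6.59 and 7.6. In each the day 14 rats lay well below the lowest control rat. Nr1d1 fell (-1.73 ± 0.36, adjusted p = 0.0061; deposited -0.94) and Per3 (-1.62 ± 0.28, adjusted p = 0.00175; deposited -0.81), and both held on all 3 scales, without each array and with the block. Nr1d2, REV-ERB beta, fell (-1.4 ± 0.3, adjusted p = 0.0061; deposited -0.68).

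Hlf and Dbp, transcription factors that carry the clock's output, fell too, with -0.54 ± 0.12 for Hlf (adjusted p = 0.00824; deposited 0.31) and -1.15 ± 0.36 for Dbp (adjusted p = 0.0471; deposited -0.32). Nr1d2 was not called with the replicate block (adjusted p = 0.0567). Hlf was not called with the replicate block (adjusted p = 0.0696) or without day 14 replicate 3 (adjusted p = 0.0627). Dbp lost its call without day 14 replicate 1, 2 or 3 or control replicate 1, 3, 4 or 6 (adjusted p 0.0672 to 0.151). On days 2, 5, 7 and 14 the differences were -2.13, -1.64, -1.73 and -1.73 for Nr1d1 and -1.12, -0.96, -1.16 and -1.62 for Per3, all against the same controls. Neither gene passed the F test among the 4 TNBS days (adjusted p = 0.873 and 0.616). The labels give no hour of killing for any group, so that hour and treatment cannot be told apart.

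For most genes called on day 14 no difference among the TNBS days was called. Of 1815 called genes 51 differed among the 4 TNBS days in an F test (2.81%), beside 3.78% of the genes not called, 3.66% of all genes and 2.45% of all probe sets. A difference shared by all TNBS arrays cannot be told apart from one between the 2 extraction entries.

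Mark2 and Tex261, among the largest rises with calls on all 3 scales and no overlap of arrays, had differences of similar size on each TNBS day. Mark2, a kinase of cell polarity and microtubules, read 8.31, 7.99 and 8.44 on day 14, with control values of 5.7, 5.98 and 6.26. Tex261, a protein of transport out of the endoplasmic reticulum, read 7.89, 7.89 and 8.13 on day 14, with control values of 5.76, 6.06 and 6.38. The groups lay far apart in each. Mark2 rose by 2.27 ± 0.19 (adjusted p = 3.1e-06) and Tex261 by 1.92 ± 0.13 (adjusted p = 5.8e-07), with differences on days 2, 5, 7 and 14 of 2.18, 2.51, 2.05 and 2.27 for Mark2 and 2.05, 2.14, 1.88 and 1.92 for Tex261. A second probe set of Tex261 was not called. Vamp2, a fusion protein of vesicles, with 1.7 ± 0.15 (adjusted p = 4.59e-06), Hars1, the histidyl-tRNA synthetase, with 1.72 ± 0.15 (adjusted p = 6.36e-06), Ndufa3, a subunit of respiratory complex I, with 1.75 ± 0.17 (adjusted p = 1.37e-05), and Zc3h18, a factor of RNA export and decay, with 1.69 ± 0.14 (adjusted p = 4.59e-06), were also among the 12 largest.

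The largest falls by the same rule included Ctdspl2, a phosphatase, which read 7.17, 7.52 and 7.32 on day 14, with control values of 8.44, 8.98 and 9.75, and Eif5a, a translation factor, which read 10.3, 10.64 and 10.64 on day 14, with control values of 11.73, 11.89 and 12.07. Neither overlapped. Ctdspl2 fell (-1.69 ± 0.27, adjusted p = 0.00102; deposited -1.09) and Eif5a (-1.38 ± 0.14, adjusted p = 1.82e-05; deposited -0.99), with -1.51 and -1.26 on day 7. Klf9, a transcription factor that glucocorticoids induce, fell (-1.37 ± 0.2, adjusted p = 0.000478; deposited -0.83), with differences of -1.31, -1.44, -1.37 and -1.37 on days 2, 5, 7 and 14. Gpd1, which makes the glycerol backbone of fat, fell (-1.39 ± 0.27, adjusted p = 0.00388; deposited -0.61), and Polr3g, a subunit of RNA polymerase III, fell as well (-1.33 ± 0.13, adjusted p = 1.37e-05; deposited -0.48).

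**Figure D5:**
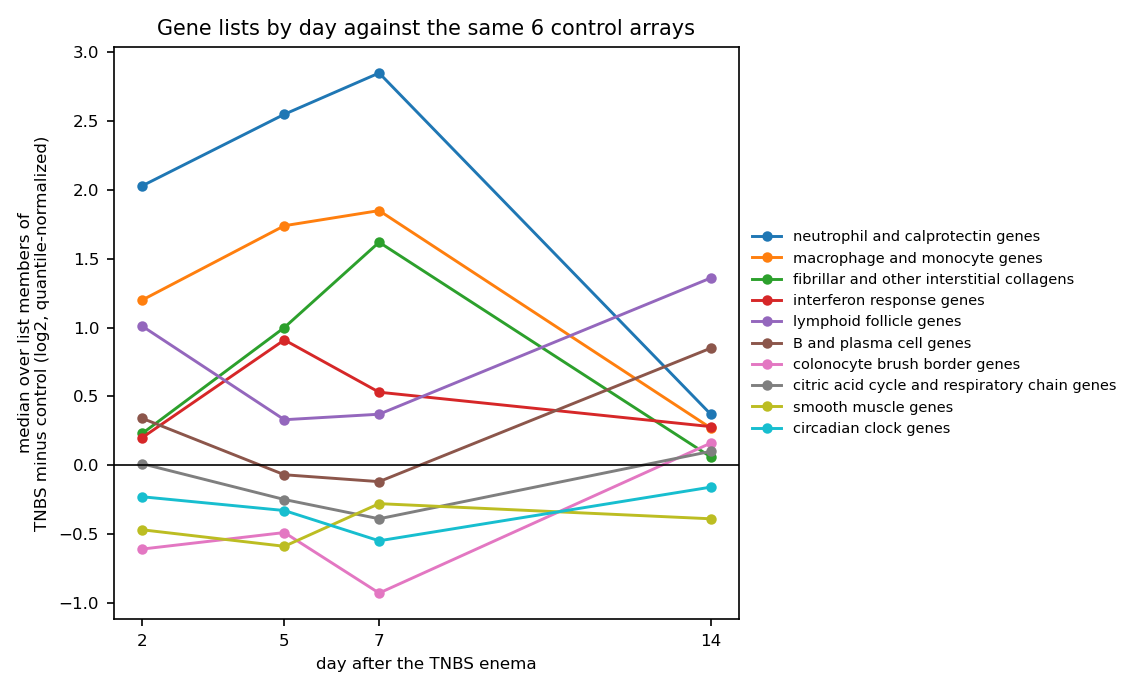
Median over the measured members of 10 gene lists of the difference between TNBS and control arrays (log2, quantile-normalized) on days 2, 5, 7 and 14, each against the same 6 control arrays, with control at 0. Neutrophil, macrophage and collagen lists come down from day 7 to between 0.06 and 0.37 on day 14, lymphoid follicle and B cell lists have their highest median on day 14, and smooth muscle and clock lists lie below 0 on all 4 days.

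A smaller set of genes stood apart on day 14 from both control and day 7. Of the 910 genes that rose 33 were also higher than on day 7, beside 1.72% of all genes. Of the 905 that fell 14 were also lower than on day 7, beside 4.32% of all genes. Mul1, an E3 ligase of the mitochondrial surface, read 6.38, 6.48 and 6.4 on day 14, with control values of 5.36, 5.6 and 5.92. It rose by 0.81 ± 0.13 (adjusted p = 0.00111), exceeded day 7 by 0.82 ± 0.15 (adjusted p = 0.00758), and held without each array and with the block. Ung, the uracil DNA glycosylase, chosen after its values were seen, rose by 0.82 ± 0.14 (adjusted p = 0.0016) with a difference of 0.17 on day 7. Sco1, a copper chaperone of cytochrome oxidase, rose by 0.84 ± 0.18 (adjusted p = 0.0055), Rab25, a small GTPase of epithelial recycling, by 0.65 ± 0.15 (adjusted p = 0.00954), and Kcnk1, a potassium channel, by 0.76 ± 0.22 (adjusted p = 0.0357). Their day 7 differences were 0.07 for Sco1, -0.14 for Rab25 and -0.31 for Kcnk1. Sco1 was not called with the replicate block (adjusted p = 0.0691). Rab25 was not called with the replicate block (adjusted p = 0.0597) or without day 14 replicate 2 or 3 (adjusted p 0.0532 to 0.0541). Kcnk1 lost its call without day 14 replicate 2 or 3 or control replicate 1, 2, 3, 4 or 6 (adjusted p 0.0514 to 0.216).

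Pc, pyruvate carboxylase, rose by 0.72 ± 0.22 (adjusted p = 0.0469), Adck2, a kinase-like protein of mitochondria, by 0.75 ± 0.21 (adjusted p = 0.0286), Wee1, the kinase that holds cells before mitosis, by 0.72 ± 0.2 (adjusted p = 0.0323), and Gast, the hormone gastrin, by 0.56 ± 0.14 (adjusted p = 0.0146). Pc was not called with the replicate block (adjusted p = 0.106) or without day 14 replicate 2 or 3 or control replicate 1, 2, 3, 4, 5 or 6 (adjusted p 0.0565 to 0.178). Adck2 was not called with the replicate block (adjusted p = 0.0868) or without day 14 replicate 1, 2 or 3 or control replicate 2 (adjusted p 0.0512 to 0.109). Wee1 lost its call without day 14 replicate 1 or 2 (adjusted p 0.114 to 0.148). Gast was not called with the replicate block (adjusted p = 0.173) or without day 14 replicate 1 or 2 (adjusted p 0.0544 to 0.102). Its median-centred difference was 0.35. Signals of Gast were low, 4.14, 4.31 and 3.88 on day 14 with control values of 3.34, 3.49 and 3.91.

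Of the genes lower than both, Ddah1, which breaks down inhibitors of nitric oxide synthase, read 6.93, 6.83 and 7.17 on day 14, with control values of 7.95, 8.26 and 8.62. Its groups lay wholly apart, and it fell (-1.27 ± 0.21, adjusted p = 0.00105; deposited -0.57) with a day 14 minus day 7 difference of -1.08 ± 0.24 (adjusted p = 0.0172). Ddah1 held on all 3 scales, without each array and with the block. Vasn, an inhibitor of TGF-beta, fell (-0.57 ± 0.12, adjusted p = 0.00588; deposited 0.3) and held likewise without each array and with the block. Lrp1, a scavenger and signalling receptor, fell (-0.56 ± 0.16, adjusted p = 0.0345; deposited 0.02), Rarres2, the chemoattractant chemerin, fell as well (-0.76 ± 0.21, adjusted p = 0.0308; deposited -0.21), and Scara5, a ferritin receptor of fibroblasts, fell as well (-0.75 ± 0.2, adjusted p = 0.0248; deposited 0.04). Lrp1 was not called with the replicate block (adjusted p = 0.205) or without day 14 replicate 1, 2 or 3 or control replicate 1, 3, 4 or 6 (adjusted p 0.0523 to 0.165). Rarres2 was not called with the replicate block (adjusted p = 0.0899) or without day 14 replicate 2 or 3 or control replicate 1 or 6 (adjusted p 0.052 to 0.156). Scara5 was not called with the replicate block (adjusted p = 0.106) or without day 14 replicate 1, 2 or 3 (adjusted p 0.0636 to 0.104). Day 7 differences of Lrp1, Rarres2 and Scara5 were 0.68, 0.34 and 0.25. A further 13 of the 905 genes that fell were higher than on day 7, beside 1.72% of all genes. Nmu, neuromedin U, a gut neuropeptide named after its values were seen, was 1 of them, with -0.83 ± 0.2 on day 14 (adjusted p = 0.0144, deposited -0.03) and -2.08 on day 7. Nmu was not called without day 14 replicate 2 (adjusted p = 0.116).

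Markers of tissue that a piece of colon may carry along gave few calls. In the adipocyte list 0 of 12 were called in limma, with 2 at an unadjusted p under 0.05 and list means of -0.79, -0.2 and -0.81 on day 14 and -0.47 to 0.96 in control, where replicate 1 held the highest value and the next was 0.47. Adipoq, the fat hormone adiponectin, read 4.16, 5.39 and 4.69 on day 14, with control values of 4.88, 5.67 and 7.74. Squamous epithelium had 1 call of 8, Sprr1a with 0.38 ± 0.12 (adjusted p = 0.0471), pancreas 1 of 11, Pnlip with -0.58 ± 0.1 (adjusted p = 0.00169; deposited 0.18), and skeletal muscle and red blood cells none of 13 and 5, with 1 and 1 at an unadjusted p under 0.05. Sprr1a was not called with the replicate block (adjusted p = 0.104) or without day 14 replicate 1, 2 or 3 or control replicate 1, 2, 4 or 6 (adjusted p 0.0636 to 0.2) or with median centring (0.2, adjusted p = 0.194). Amy2a3, a pancreatic amylase, read 2.92, 2.85 and 2.87 on day 14 and 2.83, 3.12 and 3.28 in control. Amy2a3 was called lower without control replicate 6 (adjusted p = 0.0431).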

How the data were processed

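The authors deposited 1 table of processed log2 values for 18 arrays, normalized with affyPLM in Bioconductor per the series' design text. The log base is read from their range, and neither background method nor joint normalization is stated. The number of arrays limits precision. Of 31099 probe sets, 57 controls were left out, and gene names came from GEO's platform annotation: 20826 probe sets have 1 symbol, 436 several and 9780 none. A gene stands for its probe set with the highest mean.

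All arrays were quantile-normalized (R 4.3.3, limma 3.58.1), since group medians differed, and fitted with 1 coefficient per group (lmFit, eBayes), with Benjamini-Hochberg adjustment over 31042 probe sets and a threshold of 0.05. From the same fit, an F test compared the 4 TNBS days, so that control arrays enter its spread. In data simulated from these arrays, the day 14 test recovered 41.8%, 80.6% and 97% of probe sets changed by 0.5, 1 and 2 on the log2 scale, with 7 false calls. Only 67, 67 and 66 of the 31042 probe sets were changed there, in independent normal noise without a shift between groups. The rates need not hold for data in which more probe sets differ.

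Deviations from group means were correlated between arrays of day 14 and control. Same-numbered arrays gave 0.251, 0.344 and 0.301, and unlike-numbered ones -0.325 to -0.032. Deviations cancel within a group, which pushes unlike-numbered correlations down, so that these values cannot show that the rats were paired. No label names a pair or a shared batch, and the main fit holds no block. A second fit held the number as a block. Control replicates 4, 5 and 6 share no number with a TNBS array and drop out of its day 14 difference.

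Members and the 48 gene lists (890 of 1040 genes measured, 59 in more than 1 list) were chosen with earlier results of these data known, so list counts are descriptions. Genes were named as follows: the 12 largest rises and falls called on all 3 scales without overlap of arrays, up to 4 members per list with the smallest adjusted p, a panel of 24, and up to 8 each that differed from both control and day 7, or from control alone. Myo1f, Renbp, Myd88, Il6r, Il4r, Ms4a1, Postn, Tpm1, Sfrp2, Creld2, Dbp, Nmu and Ung were named after their values were seen. Promoters come from RefSeq's table for GRCr8. Alternatives were scaling, a filter on low signals, the prior, array weights, the block, 1 probe set per gene, stricter thresholds, the arrays fitted, and each array left out.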

Additional observations from a re-analysis of the deposited data

Results flagged for a closer look

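Among the 6 control arrays 1 value stood far from the rest in 23 of the 154 genes described, by a gap to the next value beyond Dixon's critical share of the group's range, where chance alone gives about 1 in 20 groups. The day 14 group, with 3 arrays, was not examined in this way. Control replicate 2 was the array in 13 of the 23 genes, and these genes are not independent of each other. Its value and the next highest control value were 5.65 and 4.02 for Cd37, 5.65 and 4.93 for Cd3e, 11.48 and 10.46 for Cd74, 7.88 and 4.65 for Cd79b, 5.72 and 4.72 for Ciita, 7.59 and 3.6 for Cr2, 8.51 and 5.72 for Cxcl13, 6.12 and 4.96 for Glycam1, 7.02 and 5.38 for Il2rg, 8.62 and 4.12 for Ms4a1 and 11.27 and 9.98 for RT1-Da. On the low side its value and the next lowest were 3.84 and 4.12 for Cd4 and 6.45 and 6.8 for Pc. In other control arrays the outlying value and the one next to it were 6.36 and 7.14 for Calb2 (replicate 5), 3.72 and 3.99 for Cma1 (replicate 1), 10.02 and 9.85 for Col1a1 (replicate 1), 8.52 and 7.77 for Efemp1 (replicate 4), 6.52 and 5.86 for Kcnk1 (replicate 5), 5.41 and 6.01 for Nefl (replicate 5), 11.13 and 11.41 for Pgk1 (replicate 6), 6.11 and 5.24 for Slfn4 (replicate 1), 6.92 and 6.64 for Stat2 (replicate 3) and 5.15 and 5.83 for Wee1 (replicate 1).

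The effect of TNBS differed between day 14 and day 7 in 45 of these genes, by the limma test of the difference itself, with the spread estimated over all 18 arrays. In 31 of them day 14 was lower. Some of the genes had been named because they passed this same test, so that the choice of genes fixed part of the count. Over all genes 1.72% were higher on day 14 than on day 7 and 4.32% lower. Day 14 minus day 7 was -5.63 for S100a8, -5.49 for Il1b, -5.37 for Lcn2, -5.18 for Cxcl1, -4.81 for S100a9, -3.87 for Slfn4, -3.78 for C3, -3.52 for Ccl9, -3.16 for Gpnmb, -2.86 for Tyrobp, -2.84 for Timp1, -2.79 for Cd68 and -2.19 for Col1a1. Smaller differences were -1.72 for Pla2g2a, -1.65 for Bgn, -1.63 for Myo1f, -1.58 for Fbn1, -1.45 for Mmp14, -1.39 for Il6r, -1.24 for Lrp1, -1.24 for C1qa, -1.14 for Il4r, -1.1 for Rarres2, -1.08 for Ddah1, -1.0 for Scara5, -0.99 for Col3a1, -0.89 for Itga8, -0.74 for Vasn, -0.68 for Wnt5b, -0.55 for Myd88 and -0.55 for Renbp. In 14 genes day 14 was higher than day 7, by 1.24 for Nmu, 1.06 for Kcnk1, 0.99 for Pc, 0.91 for Adck2, 0.9 for Wee1, 0.82 for Mul1, 0.8 for Rab25, 0.78 for Sco1, 0.73 for Gast, 0.64 for Ung, 0.59 for Smad3, 0.59 for Dlst, 0.58 for Srebf2 and 0.44 for Cox6a1. Their adjusted p lay between 5.64e-05 and 0.0449.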

How the results depend on the processing

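Scaling changed the direction of many probe sets. On day 14 against control, 1741 probe sets were higher and 1891 lower, against 26909 and 42 as deposited, 2270 and 8774 with each array centred on its median, and 1201 and 1000 with the lowest 50% of probe sets left out. Array weights gave 2778 and 3154, the replicate block 1119 and 1018, 1 probe set per gene 900 and 879, an adjusted p under 0.01 gave 796 and 699, and a log2 change of at least 1 gave 223 and 84. Without each array in turn the counts were 908 to 1642 higher and 864 to 1824 lower, falling by over 1.5 times without day 14 replicate 2 or 3 (908 and 864, 1067 and 1097) and, for lower calls, day 14 replicate 1 (1160). Against day 7, 365 higher and 921 lower probe sets became 1288 and 1746 with array weights, 214 and 552 with the replicate block, 41 and 333 at an adjusted p under 0.01, and 224 and 669 with only these 2 groups. A log2 change of at least 1 left 45 higher. Leaving out an array of either day gave 58 (without day 7 replicate 1) to 516 (without day 7 replicate 2) higher and 375 to 1177 lower. Deviations of same-numbered arrays of days 14 and 7 had correlations of 0.168, 0.161 and 0.045, which likewise cannot show whether the rats were paired. The F test called 760 probe sets, 2153 with array weights, 76 with the replicate block, 150 at an adjusted p under 0.01, and 241 to 1019 without 1 array. As deposited, the difference was above 0 for genes below control after quantile normalization, with 0.21 for Amy2a3, 0.07 for Calb2, 0.34 for Col4a6, 0.24 for Cyp2c11, 0.01 for Fbn1, 0.05 for Fmod, 0.14 for Galnt3, 0.34 for Gpm6b, 0.25 for Hcn4, 0.31 for Hlf, 0.19 for Itga8, 0.02 for Lrp1, 0.07 for Mcpt4, 0.21 for Nefl, 0.12 for Neurod1, 0.18 for Pnlip, 0.23 for Prelp, 0.29 for Prox1, 0.01 for Pyy, 0.04 for Scara5, 0.26 for Timp4 and 0.3 for Vasn. Among 117 genes described as changed, 63 kept their call with the replicate block, 105 with median centring, 117 with array weights and 47 without each of the 9 arrays, and the block changed no call among genes not named above with its p. List counts with the block and without each array were added after the data were seen. The causes were not tested. In the simulated data, where few probe sets were changed, the test with 3 day 14 arrays recovered 28 of 67 changes of 0.5 on the log2 scale. How many changes it missed in the real arrays was not tested.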
